A study of Mus musculus with 14 samples.

Results

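The genes described here build the machinery that sorts, carries and fuses membrane vesicles. They comprise the ESCRT complexes, the Rab and Arf GTPases, the retromer and sorting nexins, the tethering complexes, and the SNARE proteins with their Munc18 and Munc13 partners. They were chosen by a rule on symbols, set with earlier results of these data known. It took every gene of the natural killer (NK) cell count table starting with Vps, Chmp, Rab, Snx, Stx, Vamp or Arf plus a digit. Genes starting with Stxbp or Unc13 were taken too. This gave 144 of 10210 genes. By role they fall into 17 ESCRT genes, 36 Rab GTPases, 7 Rab effectors and regulators, 5 Arf GTPases, 30 retromer and sorting nexin genes, 19 tethering and other Vps genes, 15 genes of lytic granule exocytosis, 11 other SNARE and Munc18 genes, and 4 set apart. The roles do not overlap: Rab27a, Rab27b and Arf6 are counted under lytic granule exocytosis and not under the GTPases. The 4 set apart share only the name: Vps72 is a subunit of chromatin remodelling complexes, Rab10os and Rab26os are non-coding RNAs and Stxbp3-ps is a pseudogene.

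The study sequenced the 3' ends of polyA RNA from NK cells of BALB/c mice in 3 groups, and asked what state NK cells take on inside a mammary tumour. The healthy group held 3 libraries of NK cells from spleens of mice without a tumour, all mice being 8 weeks old per the labels. For the other 2 groups, 8-week-old females received 100000 4T1-GFP cells in PBS in the lower left mammary fat pad, and NK cells were taken from the spleen (4 libraries) and from the tumour (4 libraries). 4T1-GFP is a green fluorescent derivative of 1 transplantable mouse mammary carcinoma line that grows in BALB/c hosts with an intact immune system. NK cells were enriched magnetically and sorted as CD45+ and NKp46+ and as negative for CD3, CD31, CD14, EPCAM and GFP. Tumours were digested with collagenase A and DNase for 20 minutes at 37 °C and spleens were crushed and treated with lysis buffer on ice, so tissue of origin and preparation cannot be told apart. The time from injection to collection is not given in the sources used here, nor is whether spleens and tumours came from the same mice. The replicates are described as independent, without saying whether each was 1 animal, so p-values measure the spread between these libraries.

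ESCRT complexes act in sequence on endosomes: ESCRT-0 and ESCRT-I gather ubiquitinated cargo, ESCRT-II and ESCRT-III bud it into the vesicles of a multivesicular body, and the ATPase Vps4 takes the ESCRT-III filament apart. Rab and Arf GTPases mark membranes and recruit the tethers that hold a vesicle to its target, and SNARE proteins then pull both membranes together under the control of Munc18 and Munc13 proteins. In NK cells the same machinery delivers lytic granules, which carry perforin and granzymes, to the contact with a target cell. That last step uses Rab27a, Munc13-4 (encoded by Unc13d), syntaxin 11 (Stx11) and Munc18-2 (Stxbp2), and inherited loss of any of these genes in humans causes an immune disease with defective killing.

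Levels are counts scaled to a common library total of 1000000 (CPM) on TMM-scaled library sizes, from 3' end counts that are not scaled by gene length. The 11 NK libraries held between 559688 and 1966963 counts each. On these raw totals 3 counts, the limit that a count of 0 allows, were worth 1.53 to 5.36 CPM. The first principal component of all genes (56.8% of the variance) parted tumours from spleens. The second (15.3%) split the spleens across their groups, with healthy replicate 1 and tumour-bearing replicates 1 and 2 on one side and the other 4 spleen libraries on the other. No label names a batch for that split, and it is set against the results below. Marker levels, here and below, are CPM on raw totals without TMM scaling. All 12 listed NK markers were present, with a summed level of 20950 to 24500 CPM in tumours and 28650 to 32230 in spleens. TMM factors were 0.9096 to 0.9742 in tumours and 0.9697 to 1.168 in spleens, so the gap between these sums depends on the scaling. Gzma made up most of the NK sum. On raw totals it was lower in all tumours than in all spleens, as were Ncr1, Klrb1c, Nkg7, Prf1 and Tbx21. Gzmb was higher, and the other NK markers overlapped. Summed markers of some other cells were higher in tumours: 152 to 300 against 76.0 to 101 CPM for macrophages and monocytes (8 of 10 markers listed), 58.6 to 191 against 0.563 to 11.9 for neutrophils (4 of 7), and 25.02 to 51.0 against 0 to 3.57 for epithelial cells (2 of 6, Epcam and Cdh1). In tumours most of the macrophage sum was Ctss and most of the epithelial sum was Cdh1. Lyz2, C1qa, C1qb and C1qc were highest in tumour replicate 3. Dendritic cell markers (4 of 7) summed to 404 to 544 against 220 to 429 CPM, with Itgax among them at 160 to 212 against 167 to 316, and the endothelial marker Pecam1 (1 of 4) lay at 131 to 185 against 48.2 to 93.0. T cell markers (3 of 7) summed to 59.2 to 98.1 CPM in tumours and 50.03 to 144 in spleens, and the B cell marker Cd79b (1 of 6) lay at 1.40 to 3.48 and 3.38 to 10.7. No listed marker of these cells was at 0 in all tumour libraries, and their part in the results was not tested. In sorted bulk RNA, fewer cells of a type and less RNA per cell cannot be told apart.

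Most of these genes were not called different between tumour and spleen NK cells, and 1 ESCRT gene, Vps37b, moved far more than any other. A filter on low counts left 135 of the 144 for testing. A gene was called at an adjusted p under 0.05 in edgeR's quasi-likelihood test, with the adjustment over all 8471 genes tested, and every adjusted p below comes from that test unless stated. Between tumour and tumour-bearing spleen NK cells, 18 members (13.3% of those tested) were higher, where 15.8% of all genes were, and 12 (8.89%) were lower, where 13.2% were. Between tumour and healthy spleen NK cells, 19 members (14.1%) were higher against 16.5% of all genes, and 18 (13.3%) were lower against 14.0%. The members' shares therefore lay near or under those of all genes. Their median log2 fold change was 0.051 against tumour-bearing spleens (0.001 over all genes) and -0.013 against healthy spleens (0.016 over all genes). Both comparisons use the same 4 tumour libraries, so their values are given side by side and not as support for each other. All 4 tumour libraries lay above all 7 spleen libraries for 14 members (13.1% of all genes did so) and below them for 10 (8.76% of all genes).

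**Figure D1:**
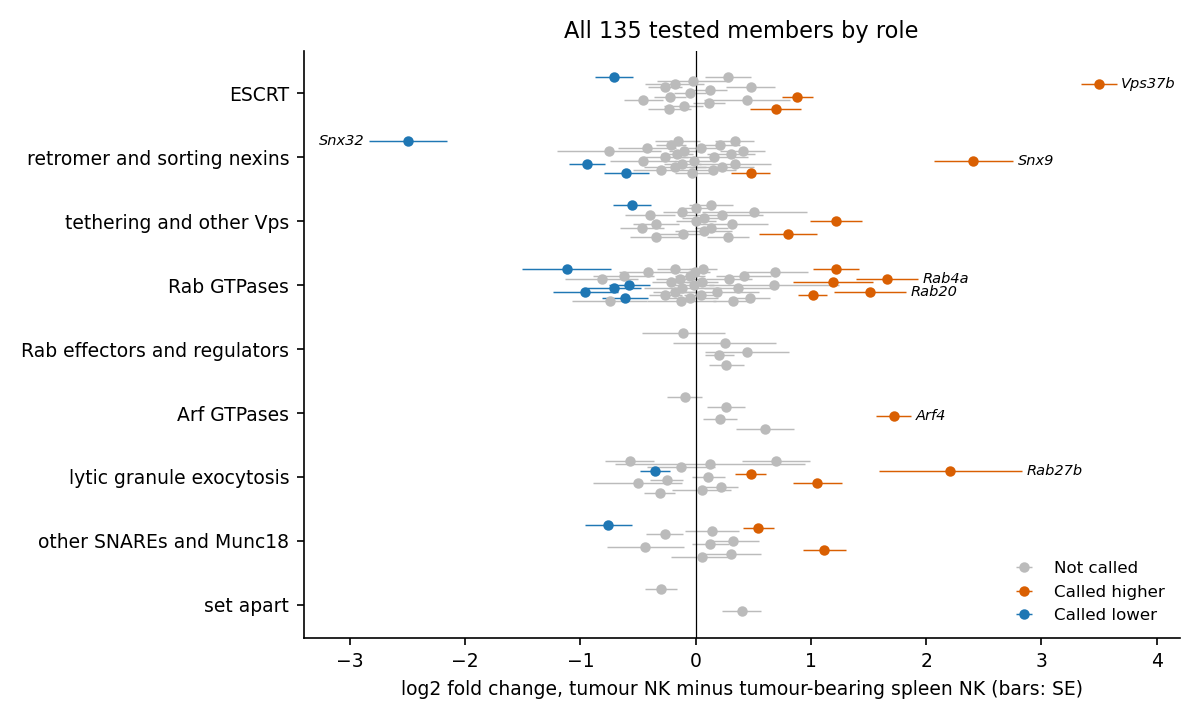
Log2 fold change of the 135 tested members, tumour minus tumour-bearing spleen NK cells, by role, with bars of 1 standard error (SE) and colour for the call. Most points lie near 0, and Vps37b at 3.50 and Snx32 at -2.50 are the ends of the range.

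The 9 members that did not pass the filter included Rab11fip1, Rab11fip3, Rab26os, Snx7, Snx8 and Snx16. None of them exceeded 12.3 CPM in any NK library, the value of Snx16 in a healthy spleen. Summed over all 144 members, the level was 9860 to 10700 CPM in the spleens and 14540 to 15470 in the tumours. Without Vps37b the same sums were 9614 to 10440 and 10490 to 10950 CPM, so that gene made up most of the difference.

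Vps37b encodes one of the alternative Vps37 subunits of ESCRT-I, the complex that hands ubiquitinated cargo down the ESCRT pathway. Its gene lies on chromosome 5 from 124004641 to 124032260 (RefSeq, GRCm38.p6). Its level was 247, 208 and 191 CPM in the healthy spleens, 365, 366, 391 and 380.4 in the tumour-bearing spleens and 3594, 4534, 4733 and 4123 in the tumours. The 3 groups did not overlap, healthy spleens being lowest and tumours highest, and the lowest tumour library stood far above the highest spleen library. The mean was 215 ± 28.6 CPM (SD, n = 3) in healthy spleens, 376 ± 12.4 (SD, n = 4) in tumour-bearing spleens and 4246 ± 504 (SD, n = 4) in tumours. Against tumour-bearing spleens it had a log2 fold change of 3.50 (SE 0.154, adjusted p = 4.87e-12), a fold of 11.3. Against healthy spleens it was 4.31 (SE 0.183, adjusted p = 4.86e-12), a fold of 19.8. As a share of all counts Vps37b took 0.3334% (exact Clopper-Pearson 95% interval 0.3236 to 0.3434) in tumour replicate 1, the lowest tumour value, and 0.0389% (0.0360 to 0.0420) in tumour-bearing spleen replicate 2, the highest spleen value. The intervals cover counting error only. By mean level Vps37b ranked 17th of all genes in the tumours and 403rd in the tumour-bearing spleens, with no scaling by length.

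Within the Vps37 family only Vps37b was called. Vps37b held 77.2% to 87.0% of the counts of Vps37a, Vps37b and Vps37c in healthy spleens, 88.4% to 90.1% in tumour-bearing spleens and 98.5% to 99.2% in tumours. The mean level of Vps37a was 15.6, 11.6 and 11.1 CPM in the same order, with a log2 fold change of -0.02 (adjusted p = 0.974) against tumour-bearing spleens. That of Vps37c was 35.4, 34.0 and 40.6 CPM, with 0.28 (adjusted p = 0.305). Neither was called.

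Most genes along the rest of the ESCRT pathway were not called, as was the case for all genes. Of 17 ESCRT members, 3 (17.6%) were higher and 1 (5.88%) was lower in tumours, by the test against either spleen group. Of all genes, 15.8% were higher and 13.2% lower against tumour-bearing spleens, and 16.5% and 14.0% against healthy spleens. Vps28, the ESCRT-I partner of Vps37 and the most abundant member in spleens, had a mean of 592 CPM in tumour-bearing spleens and 572 in tumours and was not called (-0.046 (adjusted p = 0.839)). The ESCRT-II subunits Vps25 and Vps36 had log2 fold changes of -0.27 and -0.23 and were not called. In ESCRT-III, Chmp4b, whose product forms the membrane-cutting filament, stood at 180.2, 169.6 and 215 CPM in healthy spleens, 182, 198, 185 and 257 in tumour-bearing spleens and 368, 379.7, 361 and 405 in tumours. Every tumour library lay above every spleen library. It had a log2 fold change of 0.88 (SE 0.136, adjusted p = 5.67e-05) against tumour-bearing and 1.01 (SE 0.151, adjusted p = 4.18e-05) against healthy spleens.

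A second ESCRT-III subunit, Chmp2b, was called at 0.69 (adjusted p = 0.0251) against tumour-bearing and 0.69 (adjusted p = 0.0455) against healthy spleens, with values that overlapped those of the spleens. The first call was lost without tumour-bearing spleen replicate 1, 3 or 4 or tumour replicate 1, 2 or 3 (adjusted p of 0.0534 to 0.0783), and the other without healthy spleen replicate 2 or 3 or tumour replicate 1, 2 or 3 (adjusted p of 0.0815 to 0.24). Its paralog Chmp2a, the most abundant ESCRT-III message, was not called (-0.22 (adjusted p = 0.255)), nor were Chmp1a, Chmp1b, Chmp3, Chmp5, Chmp6 and Chmp7, whose log2 fold changes ran from -0.45 to 0.45. Of the Vps4 ATPases that disassemble ESCRT-III, Vps4a fell. It stood at 66.2, 86.7 and 93.2 CPM in healthy spleens, 67.1, 81.5, 79.3 and 94.0 in tumour-bearing spleens and 50, 47.8, 57.1 and 39.9 in tumours, and every tumour library lay below every spleen library. It had a log2 fold change of -0.71 (SE 0.164, adjusted p = 0.00283) against tumour-bearing and -0.76 (SE 0.179, adjusted p = 0.00306) against healthy spleens. Vps4b was not called (0.48 (adjusted p = 0.108)), and Vps4a made up 38.8% to 48.2% of the counts of the Vps4 pair in tumours and 48.9% to 76.5% in spleens.

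**Figure D2:**
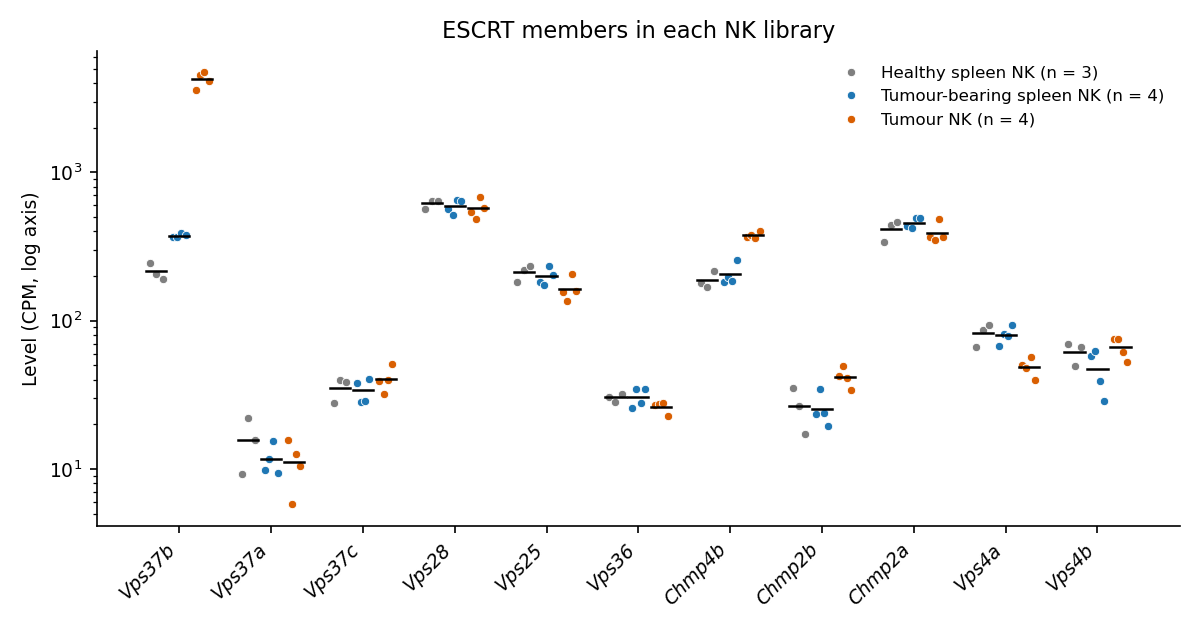
Level (CPM, log axis) of 11 ESCRT members in each of the 11 NK libraries, 1 point a library, bars at group means. The 4 tumour points of Vps37b (3594 to 4733 CPM) stand apart from all others, Chmp4b is higher and Vps4a lower in tumours, and Vps28 and Chmp2a overlap between groups.

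The summed level of the 17 ESCRT genes was 2070 to 2492 CPM in spleens and 5619 to 6995 in tumours. Without Vps37b it was 1824 to 2142 CPM in spleens and 1937 to 2261 in tumours, ranges that overlap. Among 14 other ESCRT genes outside the naming rule, 2 (14.3%) were higher and 1 (7.14%) was lower against tumour-bearing spleens. Of all genes, 15.8% were higher and 13.2% lower. Ubap1, another ESCRT-I subunit, was higher at 0.68 (adjusted p = 0.00433) and Mvb12b, a further ESCRT-I subunit, at 0.86 (adjusted p = 0.0236). Hgs, the ESCRT-0 subunit that first binds ubiquitinated cargo, was lower at -0.55 (adjusted p = 0.0135). Against healthy spleens Ubap1 (0.77) and Hgs (-0.83) were called again and Mvb12b was not (-0.064 (adjusted p = 0.887)). Tsg101, the core subunit that carries Vps37 in ESCRT-I, had 78.3 ± 2.12 CPM in tumour-bearing spleens (SD, n = 4) and 84.0 ± 11.9 in tumours (SD, n = 4) and was not called (0.10 (adjusted p = 0.617)).

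Among the 36 Rab GTPases outside the lytic granule list, 5 were higher and 5 lower (13.9% each) in tumours than in tumour-bearing spleens. Against healthy spleens 6 (16.7%) were higher and 5 (13.9%) lower. Of all genes, 15.8% were higher and 13.2% lower in the first comparison, and 16.5% and 14.0% in the second. Rab4a, a GTPase of fast recycling from early endosomes, stood at 7.70, 6.95 and 7.43 CPM in healthy spleens, 4.57, 7.82, 8.24 and 11.6 in tumour-bearing spleens and 31.2, 18.8, 24.7 and 26.6 in tumours. All tumour libraries were above all spleens, with a log2 fold change of 1.66 (SE 0.27, adjusted p = 0.000105). Rab4b, its far more abundant paralog, did not pass the test (0.043 (adjusted p = 0.858)), and Rab4a made up 8.67% to 13.1% of the counts of the pair in tumours and 2.4% to 4.69% in spleens. Rab20, which acts in the maturation of phagosomes, stood at 4.62, 4.81 and 6.60 CPM in healthy spleens, 4.57, 5.58, 8.24 and 7.96 in tumour-bearing spleens and 24.6, 20.3, 11.4 and 21.9 in tumours, again with no overlap, and it had a log2 fold change of 1.51 (SE 0.312, adjusted p = 0.00109). In spleens Rab4a and Rab20 values were low, down to 5 and 3 counts, so their folds are imprecise.

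Rab8b, which acts in transport to the plasma membrane, stood at 30.8, 56.2 and 40.4 CPM in healthy spleens, 46.5, 39.1, 46.8 and 35.4 in tumour-bearing spleens and 134, 76.8, 83.0 and 95.1 in tumours. It had a log2 fold change of 1.22 (SE 0.198, adjusted p = 9.88e-05), with tumours above all spleens, while the more abundant Rab8a was not called (-0.048 (adjusted p = 0.82)). Rab43, a GTPase of traffic between the endoplasmic reticulum and the Golgi, stood at 87.8, 87.2 and 89.1 CPM in healthy spleens, 86.9, 91.6, 97.8 and 83.2 in tumour-bearing spleens and 187, 193, 194 and 155 in tumours. Spleens of both groups lay close together and all tumours above them, with a log2 fold change of 1.02 (SE 0.124, adjusted p = 3.61e-06). Rab5a, one of 3 Rab5 forms that drive fusion of early endosomes, stood at 9.24, 3.75 and 4.95 CPM in healthy spleens, 6.86, 5.03, 7.21 and 3.62 in tumour-bearing spleens and 17.2, 14.5, 9.02 and 13.3 in tumours. Tumours lay above tumour-bearing spleens (1.196 (SE 0.347, adjusted p = 0.0137)), but 1 healthy spleen lay above the lowest tumour. The call was lost without tumour replicate 1 (adjusted p = 0.0603). Rab5c, the main Rab5 form at 89.4% to 93.5% of Rab5 counts in every library, was not called (-0.0096 (adjusted p = 0.97)). Against healthy spleens the same 5 were among the 6 Rab GTPases called higher. Their log2 fold changes were 1.81 for Rab4a, 1.81 for Rab20, 1.14 for Rab8b, 1.05 for Rab43 and 1.31 for Rab5a. That of Rab5a was lost without healthy spleen replicate 2 or 3 or tumour replicate 1 (adjusted p of 0.0658 to 0.153).

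Of the Rab GTPases that were lower, Rab3a, known for regulated secretion in neurons and endocrine cells, stood at 18.5, 16.1 and 20.6 CPM in healthy spleens, 16.0, 11.7, 18.0 and 15.9 in tumour-bearing spleens and 7.38, 4.35, 9.02 and 9.51 in tumours. Every tumour library was below every spleen library, with log2 fold changes of -0.96 (adjusted p = 0.0149) against tumour-bearing and -1.20 (adjusted p = 0.0054) against healthy spleens. Rab29, a GTPase of the Golgi, stood at 35.4, 71.2 and 58.6 CPM in healthy spleens, 48.0, 35.7, 47.4 and 67.3 in tumour-bearing spleens and 33.6, 30.4, 33.7 and 21.9 in tumours, and its log2 fold changes were -0.71 (adjusted p = 0.0275) and -0.92 (adjusted p = 0.00817). Rab2a, which acts between the endoplasmic reticulum and the Golgi, stood at 58.5, 71.7 and 53.6 CPM in healthy spleens, 51.8, 44.7, 52.5 and 39.8 in tumour-bearing spleens and 32.8, 37.7, 20.4 and 36.1 in tumours, and its log2 fold changes were -0.61 (adjusted p = 0.0269) and -1.004 (adjusted p = 0.00141). Neither gene's tumour values overlapped those of the spleens. Rab40c, which recruits a ubiquitin ligase, stood at 37.0, 43.9 and 52.0 CPM in healthy spleens, 36.6, 38.0, 40.7 and 41.2 in tumour-bearing spleens and 26.2, 24.6, 30.1 and 22.8 in tumours, also without overlap. Its log2 fold changes were -0.57 (adjusted p = 0.0212) and -0.77 (adjusted p = 0.00521).

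Leaving out single libraries ended several of these calls against tumour-bearing spleens. Rab3a was lost without tumour-bearing spleen replicate 3 (adjusted p = 0.0509), Rab29 without tumour-bearing spleen replicate 4 or tumour replicate 2 or 4 (adjusted p of 0.0552 to 0.101), Rab2a without tumour-bearing spleen replicate 3 or tumour replicate 3 (adjusted p of 0.072 to 0.099) and Rab40c without tumour replicate 4 (adjusted p = 0.0626). Against healthy spleens only Rab29 among these 4 was lost, without healthy spleen replicate 2 (adjusted p = 0.1). Other Rab calls held in 1 comparison only. Rab6b, a Golgi GTPase, was lower against tumour-bearing spleens at -1.12 (adjusted p = 0.035), a call lost without tumour-bearing spleen replicate 3 or 4 or tumour replicate 2 or 3 (adjusted p of 0.0678 to 0.134). Rab31, which acts between the Golgi and endosomes, was lower against healthy spleens at -1.40 (adjusted p = 0.00381). Rab1a, a GTPase of export from the endoplasmic reticulum, was higher against healthy spleens at 0.99 (adjusted p = 0.0336), a call lost without healthy spleen replicate 2 or 3 or tumour replicate 1, 2 or 3 (adjusted p of 0.0713 to 0.161). Its values followed the spleen split, at 38.5 to 41.6 CPM on the side of healthy replicate 1 and 13.2 to 22.5 on the other, and against healthy replicate 1 alone the log2 fold change was 0.20 (adjusted p = 0.818). The difference between the comparisons was not tested for these genes. Rab8a, Rab5c and the late endosome GTPase Rab7 had the highest levels among uncalled Rab genes, with log2 fold changes of -0.048, -0.0096 and 0.066 against tumour-bearing spleens.

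None of the 5 tested Rab effectors and regulators was called against tumour-bearing spleens, and Rab5if was higher against healthy spleens at 0.50 (adjusted p = 0.0115), a call lost without healthy spleen replicate 1 (adjusted p = 0.054). Among 25 tested Rab and Arf regulators outside the naming rule, 5 (20%) were higher and 3 (12%) lower against tumour-bearing spleens. Against healthy spleens 5 were higher and 5 lower (20% each). Of all genes, 15.8% were higher and 13.2% lower in the first comparison, and 16.5% and 14.0% in the second. The largest rise was that of Rabgef1, an exchange factor that activates Rab5, from 26.5 ± 4.5 CPM in tumour-bearing spleens (SD, n = 4) to 74.9 ± 11.4 in tumours (SD, n = 4), a log2 fold change of 1.51 (SE 0.181, adjusted p = 2.91e-06). Rabggtb, a subunit of the enzyme that attaches lipid to Rab proteins, was higher at 0.77 (adjusted p = 0.00128). Sytl1, a Rab27 effector, was lower at -0.56 (adjusted p = 0.0196) and at -1.01 (adjusted p = 0.00032) against healthy spleens.

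Of the 5 Arf GTPases outside the lytic granule list, only Arf4 (20%) was called against tumour-bearing spleens. Against healthy spleens 2 (40%) were higher and 0 lower. Of all genes, 15.8% were higher and 13.2% lower in the first comparison, and 16.5% and 14.0% in the second. Arf4, which acts at the Golgi and in recycling, stood at 146, 127 and 109.7 CPM in healthy spleens, 148, 159, 115 and 113 in tumour-bearing spleens and 468, 509, 412 and 371 in tumours. The tumours lay far above both spleen groups, which overlapped each other. It had a log2 fold change of 1.72 (SE 0.151, adjusted p = 4.93e-08), a fold of 3.29, and 1.79 (SE 0.171, adjusted p = 1.55e-07) against healthy spleens. Arf1, the most abundant Arf in spleens, was not called (0.21 (adjusted p = 0.295)), and Arf5 was called only against healthy spleens (0.50 (adjusted p = 0.0421)), a call lost without healthy spleen replicate 1, 2 or 3 or tumour replicate 1 or 4 (adjusted p of 0.0707 to 0.149).

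The 250 bases before the RefSeq start (GRCm38.p6) are printed for 3 genes that rose against both spleen groups: Arf4, the largest rise with a RefSeq window, and Rab20 and Rab5a, the ones of the 12 largest rises that held a searched E-box or CRE motif. Capitals mark CACGTG (E-box), TGACGTCA (CRE) and TGANTCA (AP-1), searched on both strands. The windows are chr14:26637884-26638133 on the plus strand, chr8:11478641-11478890 on the minus strand and chr17:53478984-53479233 on the plus strand, each 5′ to 3′ along its gene.
Arf4: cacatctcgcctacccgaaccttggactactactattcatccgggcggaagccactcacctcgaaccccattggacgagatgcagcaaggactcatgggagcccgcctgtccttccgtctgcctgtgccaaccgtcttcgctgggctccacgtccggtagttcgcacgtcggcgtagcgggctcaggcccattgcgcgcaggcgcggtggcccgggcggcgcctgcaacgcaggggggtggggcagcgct
Rab20: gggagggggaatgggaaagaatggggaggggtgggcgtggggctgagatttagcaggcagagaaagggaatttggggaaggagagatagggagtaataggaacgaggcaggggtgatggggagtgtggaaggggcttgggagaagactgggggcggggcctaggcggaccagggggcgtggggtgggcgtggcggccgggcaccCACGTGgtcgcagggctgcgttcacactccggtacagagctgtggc
Rab5a: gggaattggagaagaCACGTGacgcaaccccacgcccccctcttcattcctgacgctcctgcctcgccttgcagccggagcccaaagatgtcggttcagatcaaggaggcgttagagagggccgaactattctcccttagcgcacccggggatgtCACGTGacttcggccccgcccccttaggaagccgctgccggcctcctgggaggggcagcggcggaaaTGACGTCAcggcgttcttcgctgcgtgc
Windows were present for 9 of the 12 genes, 12 windows in all, since Rab43 has 4. CACGTG was found in 2 of these windows, those of Rab20 and Rab5a, and 6.02% of all 32851 windows of this length hold it. TGACGTCA was found in that of Rab5a, against 1.55% of all windows, and TGANTCA in none of the 12, against 6.75%. The outer letters of the NF-kappaB motif (not in capitals) were in 7 of the 12 windows, against 45.8% of all windows. A CACGTG and a TGACGTCA match do not share bases in these windows. The matches describe letters in these windows and nothing more.

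Retromer and sorting nexin genes held both the second largest rise and the largest fall. Snx9, a sorting nexin that bends membrane and works with dynamin in endocytosis, stood at 3.08, 4.81 and 0.825 CPM in healthy spleens, 6.86, 2.79, 4.63 and 5.06 in tumour-bearing spleens and 23.0, 15.9, 33.1 and 26.6 in tumours. The tumours did not overlap the spleens, where the highest value was 6.86 CPM, so the fold is imprecise. It had a log2 fold change of 2.41 (SE 0.344, adjusted p = 2.38e-05) against tumour-bearing and 2.98 (SE 0.434, adjusted p = 2.9e-05) against healthy spleens. In the sCAF libraries, a sorted population of tumour fibroblasts, Snx9 stood at 224, 207 and 231 CPM. The fibroblast markers listed in the NK table (2 of 7, Col1a2 and Col3a1) summed to 2.81 to 19.8 CPM in tumours and 3.11 to 13.5 in spleens. Snx18, of the same subfamily, was higher at 0.48 (adjusted p = 0.0383) and 0.60 (adjusted p = 0.0215). Its calls were lost without tumour-bearing spleen replicate 1, 2 or 3 or tumour replicate 1, 2 or 4 (adjusted p of 0.0567 to 0.153), and against healthy spleens without healthy spleen replicate 2 or 3 or tumour replicate 1 or 4 (adjusted p of 0.051 to 0.14).

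Snx32, a relative of the retromer-linked Snx5 and Snx6, stood at 21.6, 20.3 and 18.2 CPM in healthy spleens, 20.6, 22.3, 18.0 and 39.1 in tumour-bearing spleens and 3.28, 5.80, 5.41 and 2.85 in tumours. The tumours lay far below all spleens, with a log2 fold change of -2.50 (SE 0.337, adjusted p = 1.22e-05) and -2.18 (SE 0.373, adjusted p = 0.000168) against healthy spleens. Tumour values were near 3 counts, so the size of the fall is imprecise. Vps26c, a subunit of the retriever complex that returns receptors from endosomes to the surface, stood at 49.3, 57.8 and 55.3 CPM in healthy spleens, 58.7, 66.4, 63.3 and 60.8 in tumour-bearing spleens and 30.3, 37.7, 29.5 and 34.2 in tumours. It fell without overlap, with log2 fold changes of -0.94 (SE 0.156, adjusted p = 0.000124) and -0.75 (SE 0.172, adjusted p = 0.00248). The retromer subunits Vps26a, Vps29 and Vps35 were not called, at -0.013, 0.34 and 0.16. As a share of Vps26a, Vps26b and Vps26c counts, Vps26c held 29.5% to 34.3% in tumours and 41.0% to 48.8% in spleens.

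Other calls in this class were smaller and held in 1 comparison. Snx11 was lower against tumour-bearing spleens at -0.60 (adjusted p = 0.0264), lost without tumour-bearing spleen replicate 3 or 4 or tumour replicate 1 or 2 (adjusted p of 0.0566 to 0.093). Snx20, which binds the adhesion ligand PSGL-1, was lower against healthy spleens at -0.55 (adjusted p = 0.0148), lost without healthy spleen replicate 2 or 3 (adjusted p of 0.05 to 0.11). The retromer subunit Vps26b was lower against healthy spleens at -0.73 (adjusted p = 0.0427), lost without healthy spleen replicate 1, 2 or 3 or tumour replicate 2, 3 or 4 (adjusted p of 0.0535 to 0.131). The most abundant uncalled sorting nexins, Snx3 and Snx5, had log2 fold changes of -0.22 and 0.21 against tumour-bearing spleens. The summed level of the class was 1605 to 1830 CPM in spleens and 1622 to 1781 in tumours.

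**Figure D3:**
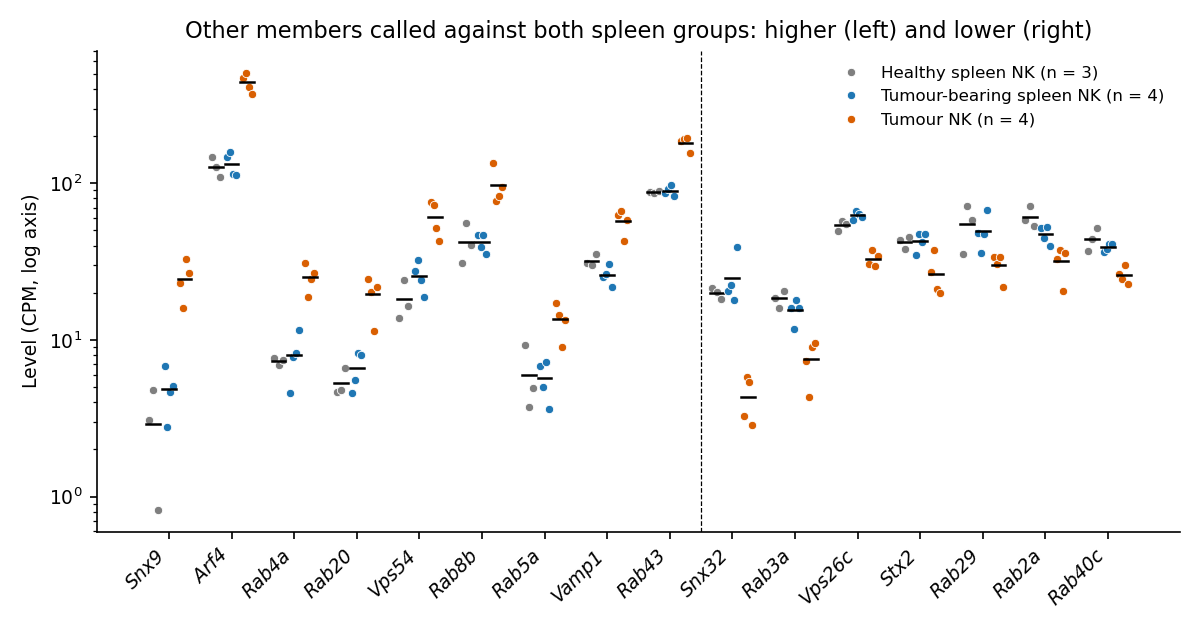
Level (CPM, log axis) of 16 members outside the ESCRT and lytic granule lists, 1 point a library, bars at group means. Left of the dashed line are 9 that were called higher and right of it 7 that were called lower in tumours than in both spleen groups, with Arf4 (371 to 509 CPM in tumours) the most abundant of them.

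Among 19 tethering and other Vps genes, 2 (10.5%) were higher and 1 (5.26%) was lower against tumour-bearing spleens. Against healthy spleens 1 (5.26%) was higher and 4 (21.1%) were lower. Of all genes, 15.8% were higher and 13.2% lower in the first comparison, and 16.5% and 14.0% in the second. Vps54 was called higher in both. Vps54 belongs to the GARP complex, which tethers vesicles from endosomes at the Golgi, and stood at 13.9, 24.1 and 16.5 CPM in healthy spleens, 27.4, 32.4, 24.2 and 18.8 in tumour-bearing spleens and 76.2, 72.5, 51.7 and 42.8 in tumours. All tumours were above all spleens, with a log2 fold change of 1.22 (SE 0.224, adjusted p = 0.000369) and 1.65 (SE 0.266, adjusted p = 8.91e-05) against healthy spleens. The other GARP subunits did not rise with it. Vps52 was lower against tumour-bearing spleens at -0.55 (adjusted p = 0.0159), lost without tumour-bearing spleen replicate 4 (adjusted p = 0.0516). Vps51 was lower against healthy spleens at -0.70 (adjusted p = 0.0307), lost without healthy spleen replicate 2 or 3 or tumour replicate 1 or 2 (adjusted p of 0.0563 to 0.159). Vps53 was not called in either comparison (0.0052 and 0.015).

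Of the shared core of the HOPS and CORVET tethers, which act at lysosomes and endosomes, Vps11 and Vps18 were lower against healthy spleens. Vps11 was called at -0.56 (adjusted p = 0.0484), lost without healthy spleen replicate 1 or 3 or tumour replicate 1, 2 or 3 (adjusted p of 0.0624 to 0.2), and Vps18 at -0.83 (adjusted p = 0.0117), lost without healthy spleen replicate 3 (adjusted p = 0.0699). The core subunits Vps16 (-0.44 (adjusted p = 0.056)) and Vps33a (0.35 (adjusted p = 0.235)) were not called, nor were the HOPS subunits Vps39 and Vps41. None of these 6 was called against tumour-bearing spleens. Vps9d1 was lower against healthy spleens at -0.62 (adjusted p = 0.0379), lost without healthy spleen replicate 1 or 3 or tumour replicate 1, 2 or 4 (adjusted p of 0.0542 to 0.147). Vps13a, a lipid transfer protein at membrane contacts, was higher against tumour-bearing spleens at 0.80 (adjusted p = 0.0226), lost without tumour-bearing spleen replicate 3 or 4 or tumour replicate 3 or 4 (adjusted p of 0.0564 to 0.099).

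The genes of lytic granule exocytosis did not move as a group. Of 15 on the list 14 were tested, and 3 (21.4%) were higher and 1 (7.14%) was lower against tumour-bearing spleens. Against healthy spleens 2 were higher and 2 lower (14.3% each). Of all genes, 15.8% were higher and 13.2% lower in the first comparison, and 16.5% and 14.0% in the second. Their summed level was 1278 to 1360 CPM in spleens and 1210 to 1337 in tumours. Rab27a, which docks granules at the plasma membrane, stood at 89.3, 80.2 and 74.3 CPM in healthy spleens, 73.9, 94.4, 75.7 and 86.1 in tumour-bearing spleens and 91.0, 82.6, 77.6 and 106 in tumours. The 3 groups overlapped, and the log2 fold change was 0.11 (adjusted p = 0.609). Unc13d, whose product Munc13-4 primes docked granules for fusion, stood at 171, 166 and 165 CPM in healthy spleens, 183, 192, 183 and 211 in tumour-bearing spleens and 124, 165, 170.2 and 144 in tumours. Tumours lay below tumour-bearing spleens and overlapped healthy spleens. The log2 fold change was -0.35 (adjusted p = 0.0452) against tumour-bearing spleens, lost without tumour-bearing spleen replicate 2, 3 or 4 or tumour replicate 1 or 4 (adjusted p of 0.0638 to 0.157), and -0.15 (adjusted p = 0.446) against healthy spleens.

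Stx11, the plasma membrane SNARE of granule fusion, stood at 29.3, 21.9 and 29.7 CPM in healthy spleens, 36.6, 30.2, 22.7 and 17.4 in tumour-bearing spleens and 54.1, 58.0, 63.1 and 45.6 in tumours. All tumours were above all spleens, with a log2 fold change of 1.06 (SE 0.212, adjusted p = 0.00085) and 1.07 (SE 0.242, adjusted p = 0.00231) against healthy spleens. Its partner and chaperone Stxbp2 stood at 24.7, 31.0 and 27.2 CPM in healthy spleens, 27.4, 27.9, 22.7 and 26.8 in tumour-bearing spleens and 13.9, 20.3, 15.6 and 21.9 in tumours, with all tumours below all spleens. Stxbp2 was called against healthy spleens at -0.68 (adjusted p = 0.0336), lost without healthy spleen replicate 2 or 3 or tumour replicate 1 or 3 (adjusted p of 0.0739 to 0.169), and not against tumour-bearing spleens at -0.57 (adjusted p = 0.0511). Against healthy spleens Stx11 was thus higher and its partner lower. Vamp2, a vesicle SNARE, stood at 136, 187 and 163 CPM in healthy spleens, 150.2, 142, 172 and 175 in tumour-bearing spleens and 216, 197, 215 and 262 in tumours without overlap, with log2 fold changes of 0.48 (adjusted p = 0.0123) and 0.45 (adjusted p = 0.0291). These were lost without tumour replicate 4 (adjusted p = 0.059) and, against healthy spleens, without healthy spleen replicate 1 or 3 or tumour replicate 4 (adjusted p of 0.0823 to 0.114). Vamp8, the more abundant vesicle SNARE of the list, was not called (-0.25 (adjusted p = 0.198)). Stx4a was lower against healthy spleens at -0.40 (adjusted p = 0.0402), lost without healthy spleen replicate 2 or 3 or tumour replicate 1, 2 or 4 (adjusted p of 0.0613 to 0.187), and not called against tumour-bearing spleens at -0.31 (adjusted p = 0.0901). Against tumour-bearing spleens Stx3 (0.70), Stx7 (0.22), Stx8 (-0.50), Stxbp3 (0.052), Vamp4 (-0.13) and Arf6 (0.12) were not called either.

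Rab27b, the close relative of Rab27a, needs separate mention because its spleen values followed the split of the spleen libraries. It stood at 21.6, 4.81 and 4.13 CPM in healthy spleens, 7.62, 5.58, 0.515 and 1.446 in tumour-bearing spleens and 11.5, 23.2, 22.9 and 11.4 in tumours. Tumours lay above tumour-bearing spleens but overlapped healthy spleens, where replicate 1 was high. In edgeR it had a log2 fold change of 2.21 (SE 0.62, adjusted p = 0.0164) against tumour-bearing and 1.05 (SE 0.638, adjusted p = 0.237) against healthy spleens. The first call was lost without tumour replicate 3 (adjusted p = 0.0584). Against tumour-bearing spleen replicates 1 and 2 alone the log2 fold change was 1.39 (adjusted p = 0.101), and against replicates 3 and 4 alone it was 4.07. Against healthy spleen replicates 2 and 3 alone it was 1.88 (adjusted p = 0.0189). Values of 0.515 and 1.446 CPM in tumour-bearing spleens are at or below 3 counts.

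**Figure D4:**
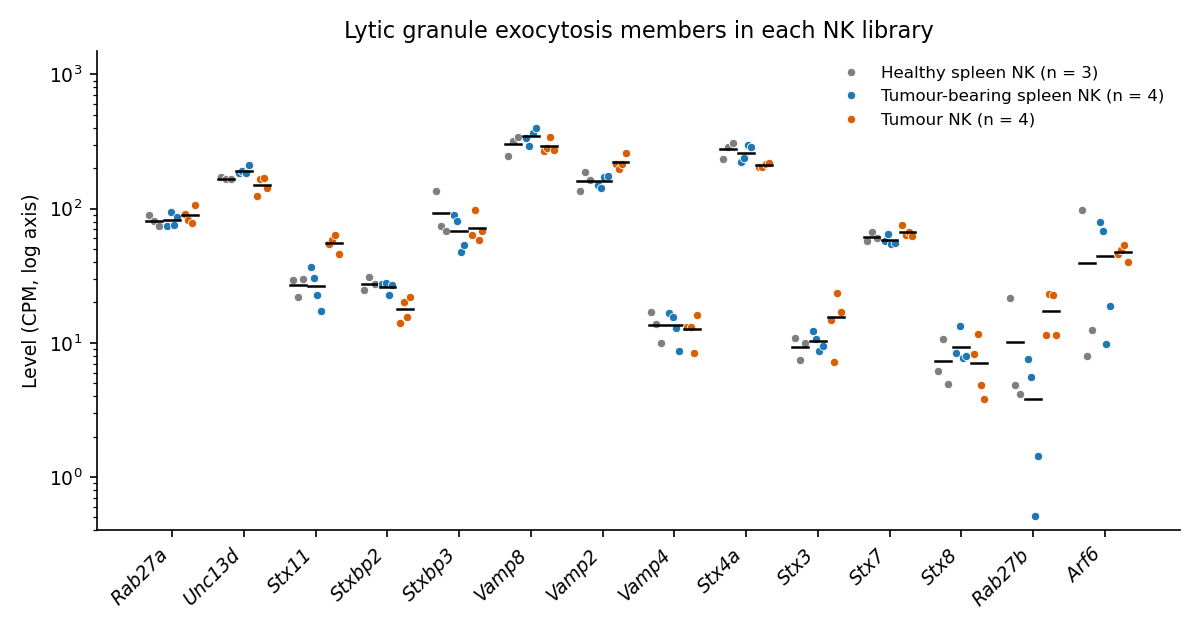
Level (CPM, log axis) of the 14 tested lytic granule members in each NK library, 1 point a library, bars at group means. Stx11 and Vamp2 are higher and Stxbp2 and Stx4a lower in all tumours than in all spleens, the Rab27a groups overlap, and Rab27b and Arf6 spread widely within the spleens.

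The cargo of the granules moved in both directions. Of 11 tested lytic granule partners and cargo genes, 3 (27.3%) were higher and 1 (9.09%) was lower against tumour-bearing spleens. Against healthy spleens 3 (27.3%) were higher and 2 (18.2%) lower. Of all genes, 15.8% were higher and 13.2% lower in the first comparison, and 16.5% and 14.0% in the second. Srgn, the proteoglycan core that packs granule contents, rose from 901 ± 94.7 CPM in tumour-bearing spleens (SD, n = 4) to 2789 ± 140 in tumours (SD, n = 4), a log2 fold change of 1.63 (SE 0.136, adjusted p = 2.7e-08). Granzyme B (Gzmb) was higher at 0.91 (adjusted p = 0.00011) and the lysosome membrane protein Lamp2 at 0.76 (adjusted p = 0.0128). Perforin (Prf1), the pore-forming protein, fell by 0.85 on the log2 scale (adjusted p = 0.00222). Against healthy spleens the log2 fold changes were 2.10 for Srgn, 2.25 for Gzmb, 0.93 for Lamp2 and -0.78 for Prf1, all called. The adaptor subunit gene Ap3s2 was also called lower there at -1.13 (adjusted p = 0.0215). Granzyme A (Gzma), the most abundant gene of this list, was not called against tumour-bearing (-0.40 (adjusted p = 0.0653)) or healthy spleens (-0.37 (adjusted p = 0.104)).

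Of the 10 other SNARE and Munc18 genes tested, 2 (20%) were higher and 1 (10%) was lower against tumour-bearing spleens. Against healthy spleens 2 were higher and 2 lower (20% each). Of all genes, 15.8% were higher and 13.2% lower in the first comparison, and 16.5% and 14.0% in the second. Vamp1, a vesicle SNARE, stood at 30.8, 29.96 and 35.5 CPM in healthy spleens, 25.2, 26.2, 30.4 and 21.7 in tumour-bearing spleens and 62.3, 66.7, 42.7 and 58.0 in tumours. All tumours were above all spleens, with log2 fold changes of 1.12 (SE 0.186, adjusted p = 0.000131) and 0.82 (SE 0.206, adjusted p = 0.00519). Vamp3, the vesicle SNARE of recycling endosomes, stood at 83.2, 88.3 and 99.8 CPM in healthy spleens, 99.9, 78.7, 84.4 and 87.5 in tumour-bearing spleens and 140.2, 112, 138 and 117 in tumours, also without overlap. Its log2 fold changes were 0.54 (adjusted p = 0.00462) and 0.49 (adjusted p = 0.0177), the second lost without healthy spleen replicate 1 or 2 or tumour replicate 1 (adjusted p of 0.0505 to 0.0786). Stx2, a plasma membrane SNARE, stood at 43.1, 38.0 and 45.4 CPM in healthy spleens, 35.1, 47.5, 42.2 and 47.7 in tumour-bearing spleens and 27.1, 37.7, 21.0 and 20.0 in tumours. Of the tumours only replicate 2 overlapped a tumour-bearing spleen, and the log2 fold changes were -0.76 (adjusted p = 0.00891) and -0.71 (adjusted p = 0.0225), the second lost without healthy spleen replicate 3 or tumour replicate 3 or 4 (adjusted p of 0.0674 to 0.0891). Stx16, a SNARE of the Golgi, was lower against healthy spleens at -0.52 (adjusted p = 0.0301), lost without healthy spleen replicate 3 or tumour replicate 3 or 4 (adjusted p of 0.0605 to 0.126). Stx5a, the most abundant of these genes, was not called (0.13 (adjusted p = 0.584)). Of 16 SNARE partners outside the naming rule, 1 was higher (Use1, 0.47) and 3 were lower (Gosr1 -0.79, Napg -0.54 and Bnip1 -0.50) against tumour-bearing spleens, and only Gosr1 was called against healthy spleens (-1.08). The shares against tumour-bearing spleens were 6.25% higher and 18.8% lower, where those of all genes were 15.8% and 13.2%.

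Between the spleens of tumour-bearing and healthy mice a single member was called, where 1.23% of all genes were higher and 0.354% lower. That member was again Vps37b, with all 4 tumour-bearing spleens above all 3 healthy spleens. It had a log2 fold change of 0.81 (SE 0.16, adjusted p = 0.0096), a fold of 1.75. The call was lost without healthy spleen replicate 2 or 3 (adjusted p of 0.0717 to 0.0929). With the split of the spleen libraries as a block it was 0.81 (adjusted p = 3.67e-06). That fit also called Snx20 (-0.48, adjusted p = 0.0305), Stxbp3 (-0.57, adjusted p = 0.00488) and Vps33b (-0.53, adjusted p = 0.0449) lower in tumour-bearing mice. Its block was read from these same libraries, which by itself narrows the remaining spread. The smaller p-value and the added calls are therefore a description and no support, and the share of all genes called in that fit is not given. Without the block no member was called lower by edgeR or DESeq2, and 4 were lower and 2 higher at an unadjusted p under 0.05 in edgeR. Chance alone would flag about 1 in 20 of the 135 tested members at that threshold, so these are not read as changes. The median log2 fold change of the members was -0.029, against -0.004 over all genes. Among the other genes of the pathway only the Arf exchange factor Cyth3 (1.48 (adjusted p = 0.00281)) and Gzmb (1.34 (adjusted p = 0.000135)) were called, both higher.

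The share of members that differed between the sides of the spleen split was near that of all genes. The sides were read from the second component of these same libraries, so the values are a description. On the side of healthy replicate 1 and tumour-bearing replicates 1 and 2, all 3 values lay above the other 4 for 23 tested members (15.1% of all genes did) and below them for 23 (12.2% of all genes). Arf6, a GTPase of the plasma membrane that acts in endocytic recycling, lay at 68.1 to 97.0 CPM on the first side, 8.02 to 18.8 on the other and 45.9, 49.3, 53.5 and 39.9 in tumours. The tumours thus lay between both sides, and Arf6 was not called in any comparison. Rab6a, a Golgi GTPase, lay at 51.1 to 57.0 CPM against 12.3 to 21.9, and Vps13c, a lipid transfer protein, at 20.7 to 38.5 against 8.68 to 11.2. Rab11fip2, Chmp1b, Rab1a, Vps13b and Vps35 also differed by about 2-fold or more, with ratios of the side means from 1.96 to 2.58. Among the 23 members on which the first side was lower without overlap, the lowest ratios were 0.704 for Snx12 and 0.707 for Stx5a.

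**Figure D5:**
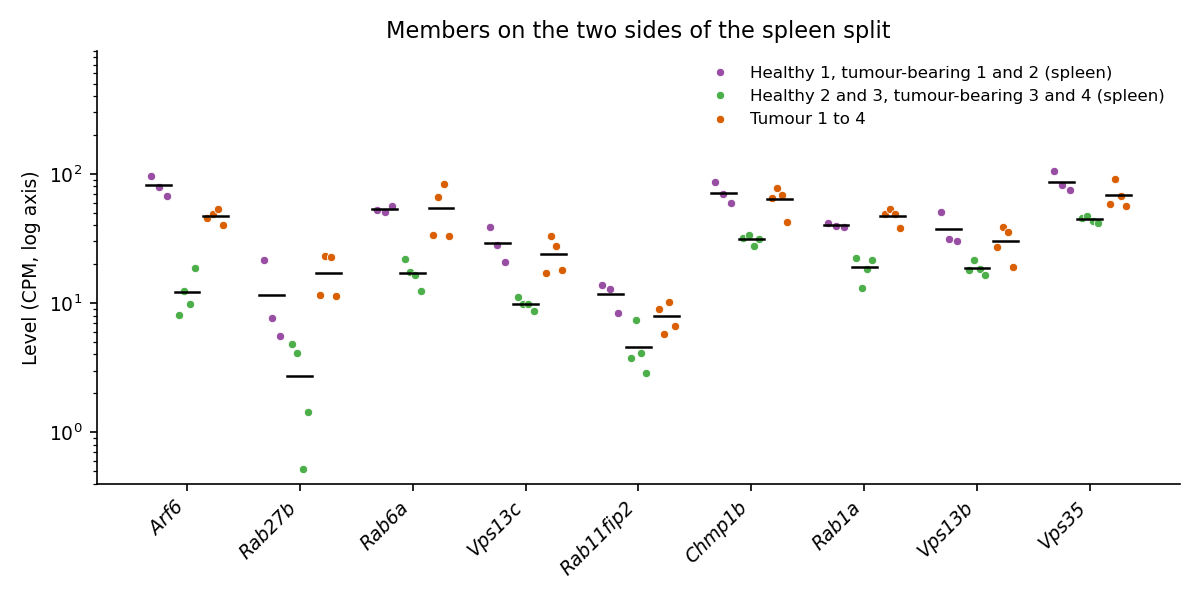
Level (CPM, log axis) of 9 members in spleens on either side of the split and in tumours, 1 point a library, bars at means. For each of the 9 the 3 spleens on one side (purple) lie above the 4 on the other (green), with Arf6 at 68.1 to 97.0 against 8.02 to 18.8 CPM, and the tumour points reach between or beside them.

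The number of members called varied with the spleens used as controls, and so did that of all genes. These fits also differ from the main comparison, and the healthy ones from each other, in the number of control libraries. Against tumour-bearing spleen replicates 1 and 2 alone, 13 of 136 tested members were higher (11.03% of all genes were) and 3 lower (6.34% of all genes). With replicates 3 and 4 as the only controls, 21 of 137 were higher (17.1% of all genes) and 19 lower (15.5%). Against healthy spleen replicate 1 alone, 8 of 140 were higher (8.35% of all genes) and 1 lower (3.71%), and with replicates 2 and 3 it was 18 of 138 higher (18.02%) and 20 lower (16.2%). Vps37b, Snx9, Arf4 and Snx32 were called in each of these 4 fits with their main direction. Against healthy replicate 1 alone, called values over 1.5 times smaller were the log2 fold changes of Rab29 (-0.22), Rab5a (0.52), Rab40c (-0.48), Chmp2b (0.23), Vps4a (-0.42), Snx18 (0.32), Snx20 (-0.27) and Stx4a (-0.14), none of them called in that fit. Those of Arf5 (0.79), Vamp2 (0.73) and Rab5if (0.80) were over 1.5 times larger, and only Rab5if was called. Against tumour-bearing replicates 1 and 2 alone, those of Rab29 (-0.46), Rab6b (-0.72) and Snx11 (-0.40) were over 1.5 times smaller and were not called.

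The sCAFs, sorted from 4T1-GFP tumours as cells lacking PDPN, CD45, CD31, GFP and EPCAM, were counted in a separate table of 3 libraries, which listed 137 of the members. Their CPM are on raw totals and no test against NK cells was made. Vps37b stood at 75.8, 63.7 and 109 CPM, Arf4 at 409, 306 and 433 and Chmp4b at 321, 285 and 291. Arf4 and Chmp4b were thus abundant in both cell types, and Vps37b lay below both of them in the fibroblasts. Rab27a, the granule docking factor, was at 4.48, 3.04 and 1.502 CPM, near the level of 3 counts, and Unc13d at 94.2, 60.7 and 69.1.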

How the data were processed

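RNA 3' ends of 11 NK libraries (3 healthy spleen, 4 tumour-bearing spleen, 4 tumour) and 3 sCAF libraries were analysed from the authors' deposited raw counts per gene symbol, 1 table for each cell type. Per the submitters' processing notes, bcl2fastq, STAR 2.4.2a and HTSeq were used with the mm10 build. The annotation, the strand setting and any use of molecular identifiers are not given in the sources used here, so reads shared with overlapping genes or near-identical paralogs could not be told apart. No per-sample column was left unused, and no listed row lacked a gene name. At least 727 rows of the NK table were out of alphabetical order, and values were read by the symbol of their own row.

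Genes were filtered with filterByExpr, scaled by TMM (factors 0.9096 to 1.168) and fitted in edgeR 4.0.16 (R 4.3.3, limma 3.58.1) by 1 robust quasi-likelihood model with only the group as a term, over all 11 libraries. P-values were adjusted by Benjamini-Hochberg over 8471 genes in each contrast, and the fit was tested on simulated data. Alternatives included DESeq2 1.42.0, other scalings, a 2-fold minimum, single libraries left out and a replicate block. Sequences and coordinates come from RefSeq on GRCm38.p6, where all 144 members matched by symbol.

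The members, role lists, partner lists and tests were chosen with earlier results of these data known. Values are given for Vps37b, for the tested lytic granule genes and for members called in a tumour comparison, by library for the 12 largest rises and the falls called against both spleen groups. In each role the most abundant uncalled members are named too, and other genes named, such as Tsg101 or those on either side of the spleen split, were picked after their values were seen.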

Additional observations from a re-analysis of the deposited data

Results flagged for a closer look

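1 value stood apart within its group. Stx8, a SNARE of late endosomes, stood at 13.4 CPM in tumour-bearing spleen replicate 2, and its gap to the next of the 4 libraries was 0.883 of the group's whole range, above Dixon's 95% critical value for 4 samples. The check was made on 33 members in both groups of 4 libraries, 66 groups in all, and chance flags about 1 in 20 of such groups.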

How the results depend on the processing

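No log2 fold change of a called member changed sign under any alternative run. Vps37b, Snx9, Arf4 and Snx32 stayed called under every alternative in both tumour comparisons, the 2-fold minimum included. Leaving the 2-fold minimum aside, 15 of 30 calls against tumour-bearing spleens and 8 of 37 against healthy spleens were kept throughout. Under the 2-fold minimum, 3 members were higher and 1 lower against tumour-bearing spleens, 4 and 1 against healthy spleens, and 0 were higher between the spleens. With upper-quartile scaling, which moved the median of all genes to -0.098 and -0.084, the counts were 16 higher and 19 lower against tumour-bearing and 13 and 24 against healthy spleens, where the main scaling gave 18 and 12, and 19 and 18. That scaling ended the calls of Chmp2b and Snx18 against both groups and of Arf5, Rab1a, Vamp2 and Vamp3 against healthy spleens. Against tumour-bearing spleen replicates 1 and 2 alone 3 were lower, and 19 against replicates 3 and 4 alone. Against healthy spleen replicate 1 alone, 8 were higher and 1 lower, a fit in which the lone library is assumed to vary like the other groups. With the spleen split as a block, one read from these same libraries, 3 were lower between the spleens, where 0 were without it. Shares of all genes are given above for the fits on part of the spleens and are not given for the other alternatives. No change in these counts is therefore read as particular to the members, and the cause was not tested.

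With 1 library left out, 15 to 19 members were higher and 7 to 16 lower against tumour-bearing spleens, 13 to 19 and 8 to 20 against healthy spleens, and 0 to 1 and 0 to 0 between the spleens. Replicate numbers of tumour-bearing spleens and tumours are not stated to pair libraries, and correlations of their deviations were -0.0471, 0.288, 0.00249 and 0.211. With the number as a replicate block, 21 members were higher and 17 lower against tumour-bearing spleens, 10 and 7 against healthy spleens, and 1 and 0 between the spleens. The block against healthy spleens drops tumour replicate 4. Shares of all genes are not given beside these counts, so the counts describe the fits and are not read as particular to the members. Genes at low counts, such as Snx9 and Rab27b in spleens and Snx32 in tumours, have imprecise folds at this depth.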
